A study of Lolium arundinaceum with 6 samples.

Results

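A set of 56 unigenes of 179680 in tall fescue leaves stood much lower at 23 °C and after 2 h of heat than after 12 h. A unigene is a transcript assembled from the reads without a genome. These unigenes were selected by their measured levels, as CPM (the count divided by the library's total and scaled to 1000000). Both 12 h libraries had to hold at least 20 CPM and at least 5 times the highest value of the control and 2 h libraries. Each control library had to hold at least 1 count, and 2 unigenes were left out by name. The late gain is therefore the criterion of selection, and levels at 12 h are given below as a description without a test. All 56 also had enough counts to be among the 28005 unigenes that entered the statistical fit.

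Tall fescue (Festuca arundinacea) is a perennial cool-season turfgrass, and the study asked how its leaf transcripts change in the first hours of heat. Leaves of 10-day-old seedlings of the variety Fire Phoenix II, labelled wild type, were sampled at 23 °C (control, labelled 0 h) and after 2 h or 12 h at 38 °C. Each of the 3 groups had 2 biological replicates, no source states more about how the replicates were raised, and no treatment was shared by all groups beyond the common growth conditions. Both heat times were compared with the same 2 control libraries, so hours of heat and time of day cannot be told apart. In whole leaves, fewer cells of a type and less RNA per cell cannot be told apart either.

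In plants, heat is sensed within minutes. Heat shock factors released from chaperones switch on a first wave of transcripts, above all those of heat shock proteins, which bind unfolded proteins. Some products of this wave are transcription factors and regulators of protein breakdown and chromatin, and transcripts that depend on them appear hours later. Long heat is also known to loosen the silencing of some transposons and other repeats. Only levels were measured here, and none of these steps was tested.

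The gain at 12 h was large, as the selection requires, and similar in the 12 h replicates, which both had to meet the limits. Mean levels of single members ran from 0.142 to 53.8 CPM in the controls with a median of 1.47, from 0.996 to 115.7 CPM at 2 h with a median of 4.29, and from 20.3 to 1027 CPM at 12 h with a median of 41.4. CPM is not corrected for length, so an order between unigenes below is one of counts and not of transcript numbers. Most members held few counts even at 12 h, with 32 under 50 CPM, 13 between 50 and 100 CPM, 9 between 100 and 500 CPM and 2 above. The fold between the mean at 12 h and the mean of the controls ran from 5.66 to 698 with a median of 23.7, and was at least 20 for 35 members and at least 100 for 7. After 2 h the level was 1.52 to 16.2% of that at 12 h, with a median of 9.93%. The 12 h libraries differed by a median of 1.07 times and by at most 1.49 times.

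All members together held 283 and 258 CPM in the 2 controls, 617 and 555 CPM after 2 h, and 5743 and 5888 CPM at 12 h. As a share of all counts these sums were 0.0283 and 0.0258% in the controls, 0.0617 and 0.0555% at 2 h, and 0.574 and 0.589% at 12 h. The pair with the highest CPM, c139888_g1 and c155734_g1, made up 32.3% of the members' 12 h sum.

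**Figure D1:**
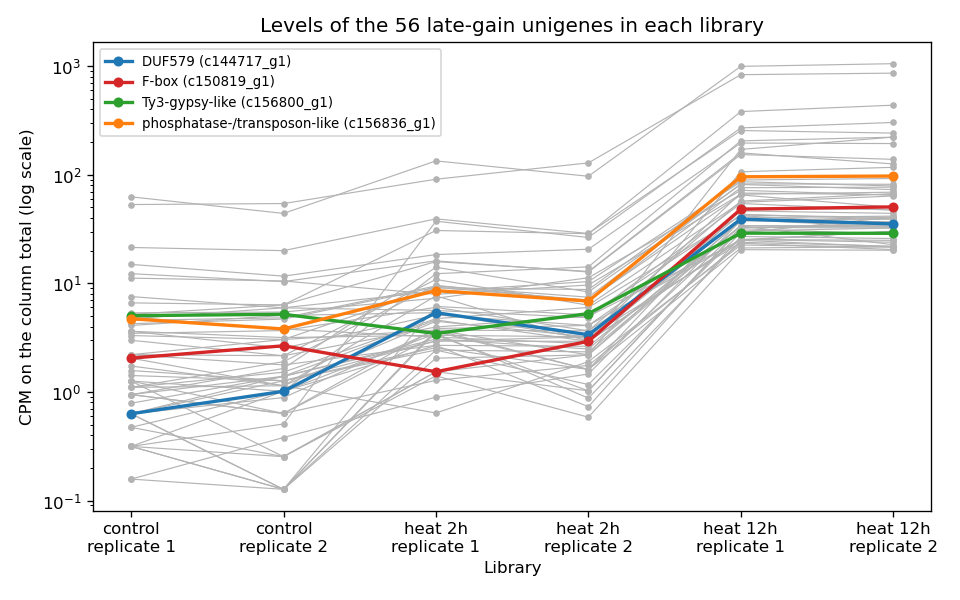
Levels of the 56 late-gain unigenes in each of the 6 libraries, in CPM on a log axis. Each line joins 1 unigene's values, the 4 coloured lines are the members with a name, and replicates have no order; every line lies at 20 CPM or more in both 12 h libraries, as the selection requires.

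Few of the unigenes that were 5 times over the controls at 12 h also met the same limit against 2 h. That limit is relative to a unigene's own 12 h level, so those removed by it were not all high at 2 h. For example, c150808_g1 was removed with 7.16 and 10.2 CPM in the 2 h libraries. Of 5035 unigenes at 20 CPM or more in both 12 h libraries, 4970 had a count in each control and were not left out by name. Among these, 523 were at least 5 times the higher control in both 12 h libraries. The ceiling at 2 h then removed 467 of them, which had exceeded it in at least 1 library of 2 h, and the remaining 56 (10.7%) are the unigenes described here.

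Only 4 of the 56 members carry a name in the study's annotated rows that were used (7.14%, against 6.65% of all unigenes tested). The other 52 are given here by their assembly ID alone. Only 1472 rows of the study's table of changed genes were used, a part of the whole. These 52 may therefore carry a name in rows that were not used. The first named member is c150819_g1, whose best rice match is the F-box protein OsFBX260 (Arabidopsis AT5G39450). F-box proteins are the subunits of SCF ubiquitin ligases that choose which proteins are marked for breakdown. Its level was 2.05 and 2.66 CPM in the controls, 1.54 and 2.93 CPM after 2 h, and 48.3 and 50.7 CPM at 12 h. The control and 2 h libraries overlapped, and both 12 h libraries lay far above, at a mean of 21.0 times the controls. After 2 h the fitted log2 fold change was -0.26 ± 0.37 (SE, n = 2 per group, adjusted p = 0.624 in edgeR with Benjamini-Hochberg adjustment), so a change in the F-box transcript was not detected at that time. Without 2 h replicate 1 the value was 0.14, so its sign rested on 1 library.

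The second is c144717_g1, a DUF579 protein matched to Arabidopsis AT1G27930. Characterised Arabidopsis proteins of this family methylate glucuronic acid residues of plant glycans. Its level was 0.630 and 1.01 CPM in the controls, 5.37 and 3.36 CPM after 2 h, and 39.1 and 35.3 CPM at 12 h. The 3 groups did not overlap and followed each other in time. At 2 h this transcript had already risen, with a log2 fold change of 2.22 ± 0.41 (adjusted p = 0.00149, edgeR), and at 12 h its mean was 45.2 times that of the controls.

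The other named members have rice matches annotated as transposon proteins. Transposons are mobile DNA elements, and some host genes descend from them. For c156800_g1 the rice match is a Ty3-gypsy retrotransposon, while the Arabidopsis match AT1G32120 holds a plant mobile domain, which is found in transposons and in some host proteins. It stood at 5.04 and 5.20 CPM in the controls, at 3.45 and 5.27 CPM after 2 h, and at 29.0 and 28.9 CPM at 12 h. Control and 2 h libraries overlapped, and the log2 fold change at 2 h was -0.39 ± 0.28 (adjusted p = 0.316, edgeR). Its mean at 12 h was 5.66 times that of the controls, the smallest fold of the 56.

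The rice match of c156836_g1 is also annotated as a transposon protein, and its Arabidopsis match AT1G48120 as a serine/threonine phosphatase, an enzyme class that removes phosphate from proteins. The level of this unigene was 4.72 and 3.80 CPM in the controls, 8.57 and 6.88 CPM after 2 h, and 95.9 and 97.4 CPM at 12 h. Both 2 h libraries were above both controls and both 12 h libraries above all others. The change at 2 h had an adjusted p of 0.0365 in edgeR but a log2 fold change of 0.72 ± 0.24, below the 2-fold limit, so it was not called. At 12 h the mean was 22.7 times that of the controls.

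Not all unigenes with the same Arabidopsis match followed this course. AT1G48120 is the best match of 7 unigenes in the rows used, of which c156836_g1 alone is a member and 6 were tested. Nearest to it was c156801_g1, with 0.315 and 0.760 CPM in the controls, 3.71 and 1.90 CPM after 2 h, and 19.5 and 16.6 CPM at 12 h. It missed the limits at a ratio of 4.48, and it was called higher at 2 h (log2 2.16 ± 0.55, adjusted p = 0.00940, edgeR). A different order was seen for c152683_g1, with 1.10 and 0.760 CPM in the controls, 23.03 and 23.99 CPM after 2 h, and 7.37 and 6.64 CPM at 12 h. This unigene was highest at 2 h, and it fell by 1.48 ± 0.24 on the log2 scale from 2 h to 12 h (adjusted p = 0.000401, edgeR). For c135681_g2, 2.99 and 2.91 CPM in the controls and 2.43 and 3.80 CPM after 2 h were followed by 0.301 and 0.277 CPM at 12 h, a log2 fold change of -3.17 ± 0.60 from control (adjusted p = 0.000716, edgeR). Of the rest, c134387_g1 was higher at 12 h than in the controls (log2 1.04 ± 0.37, adjusted p = 0.0285, edgeR) and c135536_g2 was not called (log2 -1.83 ± 0.75, adjusted p = 0.0515, edgeR).

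Control and 2 h libraries of the members were compared as a description, since the selection had used both. It set the same ceiling on them and no direction between them, but asked for a count in the controls alone. The ceiling also leaves more room for a rise where the controls are low. The numbers called are therefore partly shaped by the selection. Of the 56 members, 25 were called higher at 2 h than in the controls and 0 lower, where a call in edgeR needs a 2-fold difference and an adjusted p not above 0.05. Over all 28005 unigenes tested, 15.1% were called higher and 8.98% lower. With an unadjusted p of at most 0.05 no member was lower by 2-fold or more (2 were at any fold), and DESeq2 called 0 lower. Of the 56, 8 reached the level of the filter on low counts in 2 libraries only through the 12 h group, where they were selected to be high. The calls included 3 of these 8 (c133726_g1, c149372_g1 and c156401_g1) and 22 of the 48 others. With at least 10 counts required in every library, 27 members were left to test and 5 were called higher. In the main fit 4 of these 27 were called higher, a share near the 15.1% of all unigenes tested. Most of the 25 calls thus fell on members with fewer than 10 counts in some library. The share of all unigenes called higher under this filter was not taken. A fit of the control and 2 h libraries alone called 20 members higher, 19 of them among the 25. Because of such calls, which the selection partly shaped, the set is called late gain here and not a gain seen only at 12 h. The median fitted log2 fold change at 2 h was 0.98 over the members and 0.05 over all unigenes tested. Both 2 h libraries were above both controls for 44 members and below them for 2, where 40.5 and 25.6% of all unigenes tested were so.

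**Figure D2:**
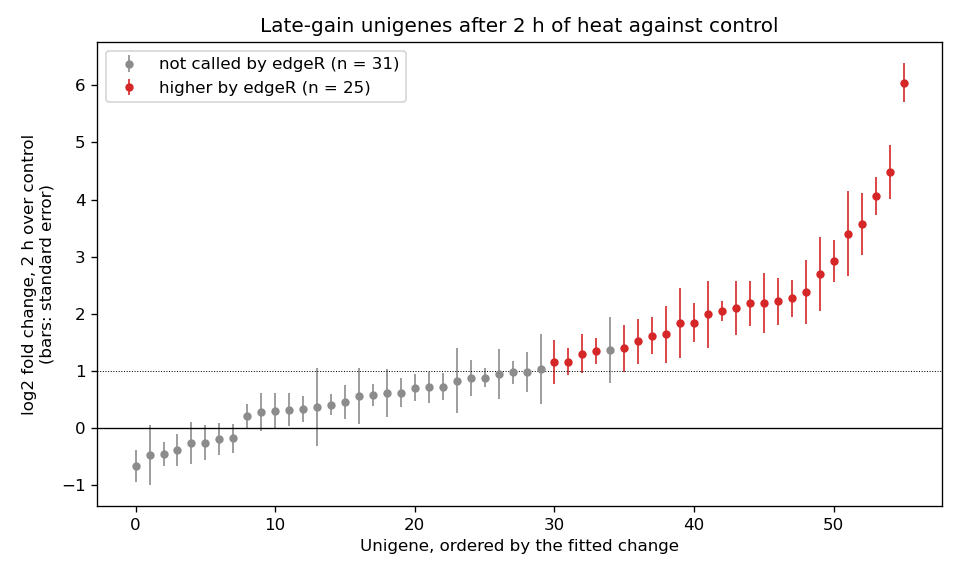
Fitted log2 fold change at 2 h over control for each of the 56 late-gain unigenes, ordered by its size, with bars of 1 standard error; the dotted line marks a 2-fold change. The 25 unigenes called higher by edgeR run from 1.16 to 6.04 and the 31 not called from -0.67 to 1.36.

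The 25 members called higher at 2 h rose by 1.16 to 6.04 on the log2 scale, with a median of 2.10, yet stood at 2.64 to 16.1% of their 12 h level. The clearest was c152048_g1, which has no name in the rows used. Its level was 0.315 and 0.507 CPM in the controls, 37.4 and 26.5 CPM after 2 h, and 270.6 and 303 CPM at 12 h. Its groups did not overlap and each was far above the one before. The log2 fold change at 2 h was 6.04 ± 0.34 (adjusted p = 8.24e-08, edgeR), and the fold at 12 h over the controls, 698, was the largest of the 56.

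The unnamed c152475_g1 followed the same course, with 0.315 and 1.01 CPM in the controls, 12.3 and 14.2 CPM after 2 h, and 205 and 222 CPM at 12 h. Its log2 fold change at 2 h was 4.06 ± 0.33 (adjusted p = 2.46e-06, edgeR). At a higher level, c138736_g1 held 6.61 and 6.34 CPM in the controls, 30.7 and 28.7 CPM after 2 h, and 383 and 438 CPM at 12 h. It had the third highest CPM of the members at 12 h, and at 2 h its log2 fold change was 2.05 ± 0.18 (adjusted p = 4.53e-06, edgeR). In all 25 members called higher, both 2 h libraries lay above both controls.

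The pair with the highest CPM was not called at 2 h. For c139888_g1 the level was 62.7 and 44.1 CPM in the controls, 134.3 and 97.0 CPM after 2 h, and 998 and 1056 CPM at 12 h. For c155734_g1 it was 53.2 and 54.4 CPM in the controls, 91.1 and 128.7 CPM after 2 h, and 836 and 864 CPM at 12 h. In both unigenes every 2 h library was above every control. Their log2 fold changes at 2 h, 0.97 ± 0.20 for c139888_g1 (adjusted p = 0.00248, edgeR) and 0.88 ± 0.17 for c155734_g1 (adjusted p = 0.00178, edgeR), were just under the 2-fold limit and were not called. This depended on the scaling. With library totals as the only scaling both were called (log2 1.13 and 1.04), and with DESeq2 neither was (0.93 and 0.84).

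Among the 31 members not called at 2 h, the fitted log2 fold change was below 0 for 8, from 0 to 1 for 21, and at 1 or more for 2. Control and 2 h libraries overlapped for 10 of them, both 2 h libraries were above the controls for 19, and both were below for 2. The lowest of all was c149568_g1, with 4.88 and 3.80 CPM in the controls, 3.20 and 2.78 CPM after 2 h, and 171 and 223 CPM at 12 h. Both 2 h libraries were under both controls, but the log2 fold change of -0.67 ± 0.28 did not pass the test (adjusted p = 0.0882, edgeR). This unigene also had the largest ratio of the lower 12 h library to the highest other one, 35.1, and its mean at 12 h was 65.9 times that at 2 h. The other member with both 2 h libraries below the controls was c156837_g1, with 11.2 and 10.5 CPM in the controls, 7.93 and 9.66 CPM after 2 h, and 66.1 and 69.2 CPM at 12 h (log2 -0.45 ± 0.21 at 2 h, adjusted p = 0.111, edgeR).

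Other members were flat over the first 2 h. For c149811_g1 the level was 3.62 and 3.17 CPM in the controls, 3.33 and 3.22 CPM after 2 h, and 43.3 and 39.2 CPM at 12 h. For c144069_g1 it was 4.72 and 5.96 CPM in the controls, 5.63 and 4.83 CPM after 2 h, and 54.4 and 47.2 CPM at 12 h. Control and 2 h libraries overlapped in both, and the log2 fold changes at 2 h, -0.19 ± 0.29 for c149811_g1 (adjusted p = 0.654, edgeR) and -0.18 ± 0.26 for c144069_g1 (adjusted p = 0.628, edgeR), were smaller than their errors. At higher counts, c156799_g1 held 12.3 and 10.4 CPM in the controls, 16.1 and 12.7 CPM after 2 h, and 154 and 139 CPM at 12 h. Both of its 2 h libraries were slightly above the controls, with a log2 fold change of 0.21 ± 0.20 (adjusted p = 0.469, edgeR). Of the 6 members above 10 CPM in the controls, c153170_g1 and c154408_g1 were also above them in both 2 h libraries, by 0.41 ± 0.19 (adjusted p = 0.112, edgeR) and 0.57 ± 0.19 on the log2 scale (adjusted p = 0.0338, edgeR), less than 2-fold.

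The members c135837_g1 and c146295_g1 had fitted changes above 2-fold at 2 h that did not pass the test. Their levels in the 2 h libraries differed widely, 2.69 and 0.732 CPM for c135837_g1 and 3.33 and 1.02 CPM for c146295_g1. The log2 fold changes were 1.03 ± 0.62 (adjusted p = 0.222, edgeR) and 1.36 ± 0.58 (adjusted p = 0.0897, edgeR).

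Low counts limited what could be seen at 2 h. In the smallest library 3 counts correspond to 0.472 CPM, and 18 members had a control mean under 1 CPM. Of the 19 members with under 10 counts in both controls, 14 were called higher at 2 h, and of the 37 with at least 10 counts in a control, 11 were. The common ceiling on control and 2 h libraries leaves more room for a rise at 2 h where the control level is low, so the 2 shares cannot be read as a difference between kinds of unigenes. The largest ratios after c149568_g1 belonged to such members. One was c141174_g1, with 0.315 and 0.127 CPM in the controls, 3.71 and 2.19 CPM after 2 h, and 107 and 117 CPM at 12 h. It had 3 control counts in all. From summed counts it was 14.3 times higher at 2 h (95% exact interval 4.57 to 71.8) and 533 times higher at 12 h (182 to 2585), where the intervals cover counting error only. The other was c156401_g1, with 0.157 and 0.380 CPM in the controls, 0.896 and 1.46 CPM after 2 h, and 37.9 and 37.0 CPM at 12 h. It was called higher at 2 h (log2 1.84 ± 0.62, adjusted p = 0.0371, edgeR), and that call was lost under 7 alternative settings.

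A further 2 members had at most 3 control counts in all. For c143407_g1 the summed counts were 26.9 times higher at 2 h (95% exact interval 8.89 to 133) and 197 times higher at 12 h (67.1 to 958). For c149372_g1 they were 13.1 times higher at 2 h (3.30 to 114) and 251 times higher at 12 h (69.1 to 2078). Both stood at a few CPM at 2 h, 5.63 CPM for c143407_g1 and 1.80 CPM for c149372_g1, and at 41.5 and 35.0 CPM at 12 h.

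Unigenes just outside the limits differed little from those just inside. At the floor, c153205_g1 (20.2 CPM in its lower 12 h library) and c155417_g1 (20.5 CPM) were taken, and c153581_g2 and c156699_g1 (19.8 CPM each) were not. At the ratio, c156726_g1 (5.02) and c155152_g1 (5.05) were taken, and c139887_g1 (4.89) and c150808_g1 (4.78) were not. The outside unigene c139887_g1 held 233 CPM or more in both 12 h libraries.

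**Figure D3:**
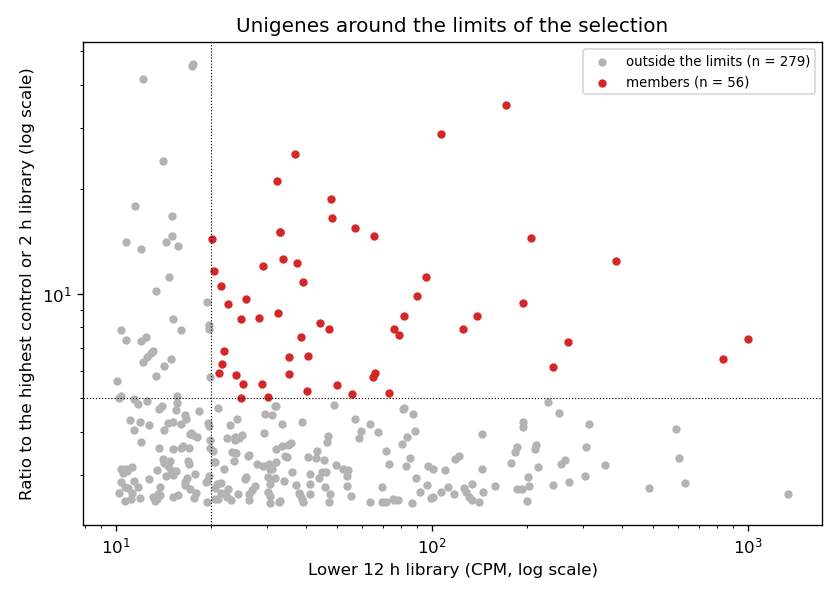
Lower 12 h library in CPM against its ratio to the highest control or 2 h library, both on log axes. Drawn are the 335 unigenes at 10 CPM and a ratio of 2.5 or more that had at least 1 count in each control and were not left out by name. Dotted lines mark the limits of 20 CPM and 5 times. The 56 members (red) reach a ratio of 35.1, and unigenes outside (grey) lie close to both lines.

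The assembly divides transcripts into components, and unigenes of 1 component share sequence and may share reads. The members fall into 55 components, and c127598_g1 and c127598_g2 share 1. No other unigene lies in the component of 32 members. Of the 37 other unigenes in these components, 13 were tested, beside 10 of the members. At 12 h, 12 of the 13 were called higher than control and 0 lower, where 25.3% of all unigenes tested were called higher and 23.3% lower. The exception was c151022_g2 (log2 1.58 ± 0.72, adjusted p = 0.0766, edgeR). Against 2 h, 11 were called higher at 12 h and 0 lower (16.2 and 19.6% of all). At 2 h, 4 were called higher than control and 0 lower (15.1 and 8.98% of all). The other 24 had too few counts for the test. Of the 13, 6 reached the level of the filter in 2 libraries only through the 12 h group, so a call at 12 h was partly set for them by the filter. The 7 others were all called higher at 12 h than in the controls. Of these 7, 6 were called higher at 12 h than at 2 h, and 3 higher at 2 h than in the controls. The part of all these unigenes in the members' counts was not tested.

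Some of these unigenes held far more counts than the member beside them. For c153976_g1 the level was 483 and 507 CPM in the controls, 420 and 410 CPM after 2 h, and 1462 and 1344 CPM at 12 h. Its log2 fold change at 12 h was 1.62 ± 0.13 (adjusted p = 1.05e-06, edgeR), while the member c153976_g2 held 4.25 and 4.69 CPM in the controls, 9.21 and 7.02 CPM after 2 h, and 65.2 and 50.2 CPM at 12 h. The member's mean at 12 h was several times that of its controls, while the other unigene had high counts in all groups.

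Likewise, c139888_g2 held 77.6 and 53.3 CPM in the controls, 69.3 and 64.1 CPM after 2 h, and 138.4 and 159.0 CPM at 12 h (called higher at 12 h than in the controls, adjusted p = 9.71e-05, edgeR). It was slightly above the member c139888_g1 in the controls and far below it at 12 h. The order of times could also differ: c148341_g1 had no count in either control, 14.8 and 6.88 CPM after 2 h, and 8.27 and 9.27 CPM at 12 h. Its 2 h and 12 h levels did not differ beyond their spread (log2 -0.06 ± 0.36, adjusted p = 0.907, edgeR), whereas the member c148341_g2 held 7.29 and 11.3 CPM after 2 h and 72.0 and 64.9 CPM at 12 h. At 2 h, c153976_g1 (log2 -0.40 ± 0.13, adjusted p = 0.0338, edgeR) and c156840_g2 (log2 -0.48 ± 0.16, adjusted p = 0.0366, edgeR) were below the controls by less than 2-fold. The member c156840_g1 was called higher at 2 h (log2 2.92 ± 0.36, adjusted p = 7.44e-05, edgeR). The member c153976_g2 was not called (log2 0.71 ± 0.27, adjusted p = 0.0615, edgeR).

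**Figure D4:**
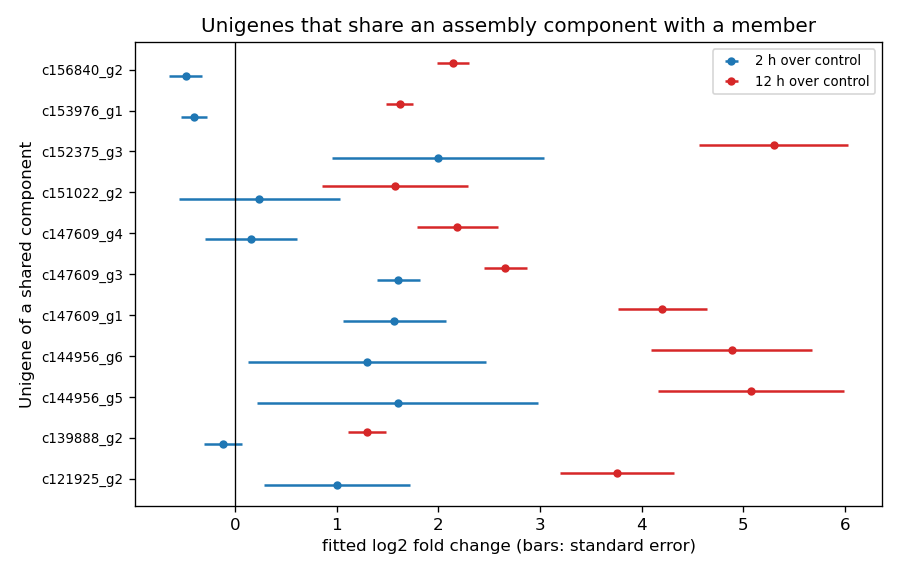
Fitted log2 fold change over control at 2 h (blue) and at 12 h (red) for 11 unigenes that share an assembly component with a late-gain unigene, with bars of 1 standard error. The 2 others tested had no control counts and are not drawn; all 11 lie above 0 at 12 h, and c151022_g2 did not pass the test there.

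Of 15 annotated lists from the study's tables, the F-box list held 1 member and the transposon-like list 2. The 13 others held none. Among them were heat shock proteins and chaperones, transcription factors, RING ubiquitin ligases, proteasome subunits and the abscisic acid, auxin, brassinosteroid and melatonin lists. Since 52 of the 56 members have no name in the rows used, they could not enter a list. A list without a member therefore does not show that its class is absent from the set. The lists were drawn from tables of unigenes that the study reported as changed by heat in these same libraries. More calls than among all unigenes tested are therefore partly built in. Neither the number of calls nor their direction is independent evidence.

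Outside the members, 126 F-box unigenes were tested. At 2 h, 44 were called higher and 6 lower (15.1 and 8.98% of all unigenes tested), with a median log2 fold change of 0.74 against 0.05 over all. At 12 h, 87 were called higher than control and 31 lower (25.3 and 23.3% of all), with a median of 1.58 against 0.00. From 2 h to 12 h, 44 rose and 23 fell (16.2 and 19.6% of all), with a median of 0.72 against -0.09. With library totals as the only scaling, the last split was 31 higher and 30 lower. The F-box member c150819_g1 was not among those called at 2 h. A pair that missed the limits had already risen strongly at 2 h. One, c136785_g1 (rice OsFBX411), held 1.57 and 1.77 CPM in the controls, 68.3 and 44.8 CPM after 2 h, and 237 and 216 CPM at 12 h. The other, c110817_g2, held 0.157 and 0.507 CPM in the controls, 46.9 and 28.5 CPM after 2 h, and 207 and 194 CPM at 12 h.

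Among 106 transposon-like unigenes tested outside the members, 50 were called higher and 8 lower at 2 h, with a median log2 fold change of 1.24, where 15.1 and 8.98% of all unigenes tested were so called. At 12 h, 71 were called higher than control and 22 lower (25.3 and 23.3% of all), with a median of 1.86. Between 2 h and 12 h the calls were nearly even, 29 higher and 25 lower (16.2 and 19.6% of all), with a median of 0.33. With library totals as the only scaling they were 27 higher and 31 lower. The members c156800_g1 and c156836_g1 were not among the unigenes called at 2 h.

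The libraries held 6349776 to 7891567 counts. Over all unigenes tested at 10 CPM or more, the log2 difference between replicates had an SD of 0.271 in the controls, 0.516 at 2 h and 0.257 at 12 h, so the 2 h group was the most variable. The main fit shared its estimate of the spread among all groups, so the wider spread at 2 h was not modelled apart. The 2 h libraries differed by a median of 1.38 and up to 3.93 times for single members. As a check of the tissue, 9 unigenes matched to the photosynthetic leaf genes LHCB1.3, PSAO, PSAK and PSBS were summed. They held 12325 and 12423 CPM in the controls, 9711 and 7849 CPM after 2 h, and 3825 and 3768 CPM at 12 h. The sum was carried by 3 of the 9, c133500_g3 (PSAO), c132391_g1 (PSAK) and c137256_g1 (PSBS), which had high counts in every library and lower ones at 12 h than in the controls. The LHCB1.3 unigenes held at most 129.9 CPM in any library. A pair of low unigenes went the other way, c138665_g1 (LHCB1.3), with 0.157 and 0 CPM in the controls and 16.7 and 14.8 CPM at 12 h, and c178872_g1 (PSAK), with 0 and 0.127 CPM in the controls and 4.81 and 1.94 CPM at 12 h. The part of these shifts in the members' levels was not tested.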

How the data were processed

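RNA from leaves of 2 biological replicates per group was sequenced in 6 libraries. The deposited table holds expected counts for unigenes that the authors assembled with Trinity, with no scaling between libraries. RSEM is named for these values in the methods, and HTSeq, Bowtie2 and TopHat2 in the labels. Of its values, 0.157% were not whole (tolerance 0.001), and 53 of 56 members had whole counts throughout. It holds no columns of the authors' own comparisons.

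CPM for the selection was the count divided by the column total. For the tests, counts were rounded, kept by filterByExpr (minimum count 10), scaled by TMM and fitted in edgeR 4.0.16 (R 4.3.3) with a quasi-likelihood model of all 6 libraries. The Benjamini-Hochberg adjustment ran over 28005 unigenes, which hold 97.7 to 98.4% of the counts. Calls need a 2-fold difference and an adjusted p not above 0.05. Standard errors are the log2 fold change divided by the root of the F statistic. Fitted changes are on the TMM scale, on which the median of all unigenes was 0.05 at 2 h (0.20 by library totals, 0.01 by RLE). Summed-count ratios carry exact 95% intervals. The fit was tested on simulated data.

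Named were every member with a name in the tables, the 3 with the highest CPM at 12 h, the 3 with the largest ratio, the 2 with the smallest adjusted p at 2 h, and the unigenes beside each limit. Other unigenes in the text were picked with their values in view. The members, the lists and the rule were chosen with earlier results of these data known. The 1472 rows used of the changed-gene table gave many of the names. Alternatives were other limits, RLE, library totals, other filters, DESeq2 1.42.0, a fit of 4 libraries, no minimum fold, an unadjusted p, a replicate block and each library left out. Sequences of the members were not used here.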

Additional observations from a re-analysis of the deposited data

How the results depend on the processing

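The number of unigenes selected depended on the limits, which were set by choice. It was 90 with a floor of 10 CPM, 29 with a floor of 40 CPM, 30 with a ratio of 8, and 91 with no minimum count in the controls, against 56 as reported. TMM-scaled CPM gave 78 and a ratio of 4 gave 80. With each library left out the count was 59 to 83, since fewer libraries had to meet the limits. The 25 calls at 2 h became 5 when at least 10 counts were required in every library, which left 27 members to test, 4 of them called as reported. Under the other settings the count was 20 to 31, and with each library left out 17 (without control replicate 2) to 29. Outside the filter on 10 counts, 13 members were called higher under every alternative. The count of members called lower at 2 h was 0 under every alternative run. With at least 10 counts in every library the F-box calls outside the members were 22 higher and 2 lower at 2 h, 43 and 17 at 12 h, and 20 and 11 from 2 h to 12 h, and the transposon-like calls 18 and 2, 20 and 8, and 9 and 12, since fewer unigenes were tested. Lower transposon-like calls at 2 h were 4 with DESeq2 and without either control. The replicate numbers showed no sign of pairing the samples: correlations of replicate differences between groups were -0.05, 0.04 and -0.04. Such values cannot show how the replicates were raised. The replicate block gave 25 higher and 0 lower. Of 198 alternative values for the 16 named unigenes, 178 kept their direction and their side of the threshold, 7 lost the call (all for c156401_g1), 9 gained it and 4 turned direction, all with a library left out and for unigenes not called at 2 h. With each library left out, the log2 fold change at 2 h ran from -0.78 to 0.14 for c150819_g1 (0.14 without 2 h replicate 1), from -0.47 (without control replicate 2) to 1.76 for c153205_g1 (-0.41 without 2 h replicate 1), and from -0.12 (without 2 h replicate 1) to 0.59 for c155152_g1. With 2 replicates per group and few control counts, p-values rest on a spread estimated from these libraries alone. That estimate was shared among the groups and drew on all unigenes tested.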
